A study of Mus musculus with 12 samples.

Results

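The collagens and the enzymes that modify them were followed in serum-starved, confluent mouse fibroblasts in which Myc and YAP were switched on alone or together. Members were the genes whose symbol is that of a collagen chain (Col, a number, a, a number), a lysyl oxidase (Lox, Loxl), a prolyl 4-hydroxylase alpha subunit (P4ha) or a lysyl hydroxylase (Plod), together with Serpinh1, Pcolce and Bmp1. The rule found 58 of 21671 genes, namely 11 fibrillar collagen chains, 9 chains of basement membranes and their adjoining zone, 23 other collagen chains and 14 enzymes and helpers. The remaining gene, Col4a3bp, fits the pattern of letters but encodes a ceramide transfer protein. It was kept out of these classes but is included in the counts of members. Of the 58 members, 39 were tested, among 12259 genes in all, for which the deposited table gave an adjusted p and a dispersion could be recovered. Col6a3, a chain of type VI collagen, was not analysed here.

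The cells were 3T9 MycER;YAP fibroblasts, an immortalized line of embryonic origin. All groups carried MycER, a Myc protein that 4-hydroxytamoxifen (OHT) activates, and a pSlik vector from which doxycycline (dox) induces YAP S127A, a form of YAP that cannot be phosphorylated at that serine and so is less retained in the cytoplasm. The groups were OHT (400 nM), dox (2 µg/mL), OHT+dox and mock, with 3 libraries each. No group separates dox itself from the YAP it induces, or OHT itself from active MycER, so these cannot be told apart. The labels do not say whether the libraries of a group came from separate cultures, so differences between libraries may be technical. The standard errors of the Wald tests and group means come from a dispersion per gene, recovered from the 3 deposited comparisons and averaged. They are not the spread of the 3 libraries of a group. The 3 comparisons with mock share the same mock libraries.

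Collagens are built from chains that wind into a triple helix. Fibrillar collagens such as types I, III and V form the fibrils of connective tissue, type IV forms the sheet of basement membranes, and other collagens coat fibrils, form networks or span the cell membrane. In the endoplasmic reticulum prolyl 4-hydroxylases stabilise the helix, lysyl hydroxylases prepare lysines for cross-linking, and Hsp47 (Serpinh1) is the collagen chaperone. Outside the cell Bmp1 removes the C-terminal propeptide, Pcolce enhances that cut, and lysyl oxidases start the cross-links that stiffen the fibrils.

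Levels are mean normalized counts, that is, reads per gene scaled for the depth of the library. The group means summed to 8099684 in OHT, 8220673 in dox and 8222769 in OHT+dox, against 8112407 in mock, and the size factors of the 12 libraries ranged from 0.832 to 1.16. Of 7 fibroblast markers 6 were expressed, while Thy1 was near 0. The 4 epithelial and 4 endothelial markers were not tested, and of 4 chondrocyte markers only Sox9 was tested, with the cartilage genes Acan and Matn1 at or near 0. All 4 myofibroblast markers, 2 of 5 osteoblast markers (Runx2 and Alpl, with Sp7, Bglap and Ibsp near 0) and 1 of 5 macrophage markers (Cd68) were tested. As a check of the groups, the YAP target Ctgf had a log2 fold change (± SE) against mock of -0.32 ± 0.09 with OHT (adjusted p = 0.00297), 0.64 ± 0.09 with dox and 0.45 ± 0.09 with OHT+dox. The Myc target Ncl was at 0.94 ± 0.10 with OHT, 0.45 ± 0.10 with dox (adjusted p = 0.000291) and 1.05 ± 0.10 with OHT+dox. All of these values passed the test, so Ncl rose with dox as well as with OHT, and Ctgf fell with OHT.

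The promoter windows of 4 collagen genes are shown because these are the collagens that passed both an adjusted p of 0.05 and an absolute log2 fold change of 0.5 against mock. Each is the 250 bases before the RefSeq transcript start (GRCm38.p6, plus strand, read 5′ to 3′), and none of them overlaps an annotated exon. They lie at chr10:34389731-34389980 (Col10a1), chr17:34038888-34039137 (Col11a2), chr11:51289670-51289919 (Col23a1) and chr4:63215162-63215411 (Col27a1). Capitals mark a match to a motif searched for.
Col10a1: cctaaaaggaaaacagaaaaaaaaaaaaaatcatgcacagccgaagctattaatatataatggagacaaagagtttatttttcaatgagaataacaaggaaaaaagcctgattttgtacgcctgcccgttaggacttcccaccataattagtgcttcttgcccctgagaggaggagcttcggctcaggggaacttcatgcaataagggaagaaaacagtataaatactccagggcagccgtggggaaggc
Col11a2: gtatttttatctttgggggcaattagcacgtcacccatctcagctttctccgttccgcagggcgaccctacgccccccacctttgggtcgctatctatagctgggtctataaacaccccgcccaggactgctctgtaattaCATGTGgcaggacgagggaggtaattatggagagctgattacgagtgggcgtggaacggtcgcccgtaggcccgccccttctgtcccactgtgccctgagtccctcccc
Col23a1: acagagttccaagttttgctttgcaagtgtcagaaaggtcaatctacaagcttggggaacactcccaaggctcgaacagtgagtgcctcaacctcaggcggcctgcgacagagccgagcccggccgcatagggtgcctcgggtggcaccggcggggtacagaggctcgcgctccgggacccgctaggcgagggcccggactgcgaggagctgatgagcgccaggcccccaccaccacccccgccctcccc
Col27a1: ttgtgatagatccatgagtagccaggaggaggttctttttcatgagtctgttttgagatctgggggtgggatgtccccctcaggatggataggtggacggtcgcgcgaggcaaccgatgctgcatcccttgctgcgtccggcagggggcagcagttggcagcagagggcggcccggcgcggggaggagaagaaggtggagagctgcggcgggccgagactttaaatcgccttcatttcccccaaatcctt

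The motifs searched for, on both strands, were CACGTG (the E-box that Myc binds with Max), its variant CACATG, and GGAATG (the element of the TEAD factors through which YAP reaches DNA). Windows were found for 42 of the 58 members and for 27025 entries of the RefSeq table. CACGTG was in 0 of the 42 member windows and in 6.05% of all windows. CACATG was in 3 of them (Col11a2, where it reads CATGTG on the printed strand, Col24a1 and Col3a1) and in 12.2% of all. GGAATG was in 3 of them (Col20a1, Col3a1 and Col6a2) and in 12.6% of all. These matches describe the letters of the windows only.

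With OHT, collagens and enzymes were lower or did not pass the test. Of the 39 tested members 0 rose and 8 fell at an adjusted p under 0.05 (Wald test, Benjamini-Hochberg over all genes), against 12.7% of all genes that rose and 9.1% that fell. The members that fell were the fibrillar chains Col5a1 and Col27a1, the type IV chains Col4a1 and Col4a2, the enzymes Lox, Loxl4 and Bmp1, and Col4a3bp. The median log2 fold change was -0.13 over the 9 tested fibrillar chains, -0.26 over the 5 basement membrane chains, -0.16 over the 10 other collagens and -0.05 over the 14 enzymes and helpers, beside -0.01 over all genes. With an absolute log2 fold change above 0.5 required as well, 0 members passed, against 9.45% of all genes. In bulk RNA, fewer cells of a type and less RNA per cell cannot be told apart.

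With dox alone, 1 member rose (Loxl4) and 1 fell (Col11a2), against 6.28% of all genes that rose and 4.57% that fell. Both also passed the fold threshold, as did 4.01% of all genes. The median log2 fold change was 0.01 over fibrillar chains, -0.06 over basement membrane chains, -0.13 over other collagens and -0.02 over enzymes and helpers.

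With OHT+dox, 2 members rose (Col2a1 and P4ha1) and 12 fell, against 20.8% of all genes that rose and 19.3% that fell. As shares of the 39 members these were 5.13% and 30.8%, and the share called in either direction was 35.9%, near the 40.1% of all genes. Those that fell were Col5a1 and Col27a1 among fibrillar chains, Col4a1 and Col4a2 of the basement membrane, Col6a2, Col10a1, Col12a1 and Col23a1 among other collagens, the enzymes Lox, Loxl3 and Bmp1, and Col4a3bp. With the fold threshold 3 passed (Col10a1, Col23a1 and Col27a1), all lower, against 20.7% of all genes. The median log2 fold change was -0.14 over fibrillar chains, -0.37 over basement membrane chains, -0.27 over other collagens and -0.10 over enzymes and helpers. These shares and medians describe the list, and the classes were not tested against each other.

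**Figure D1:**
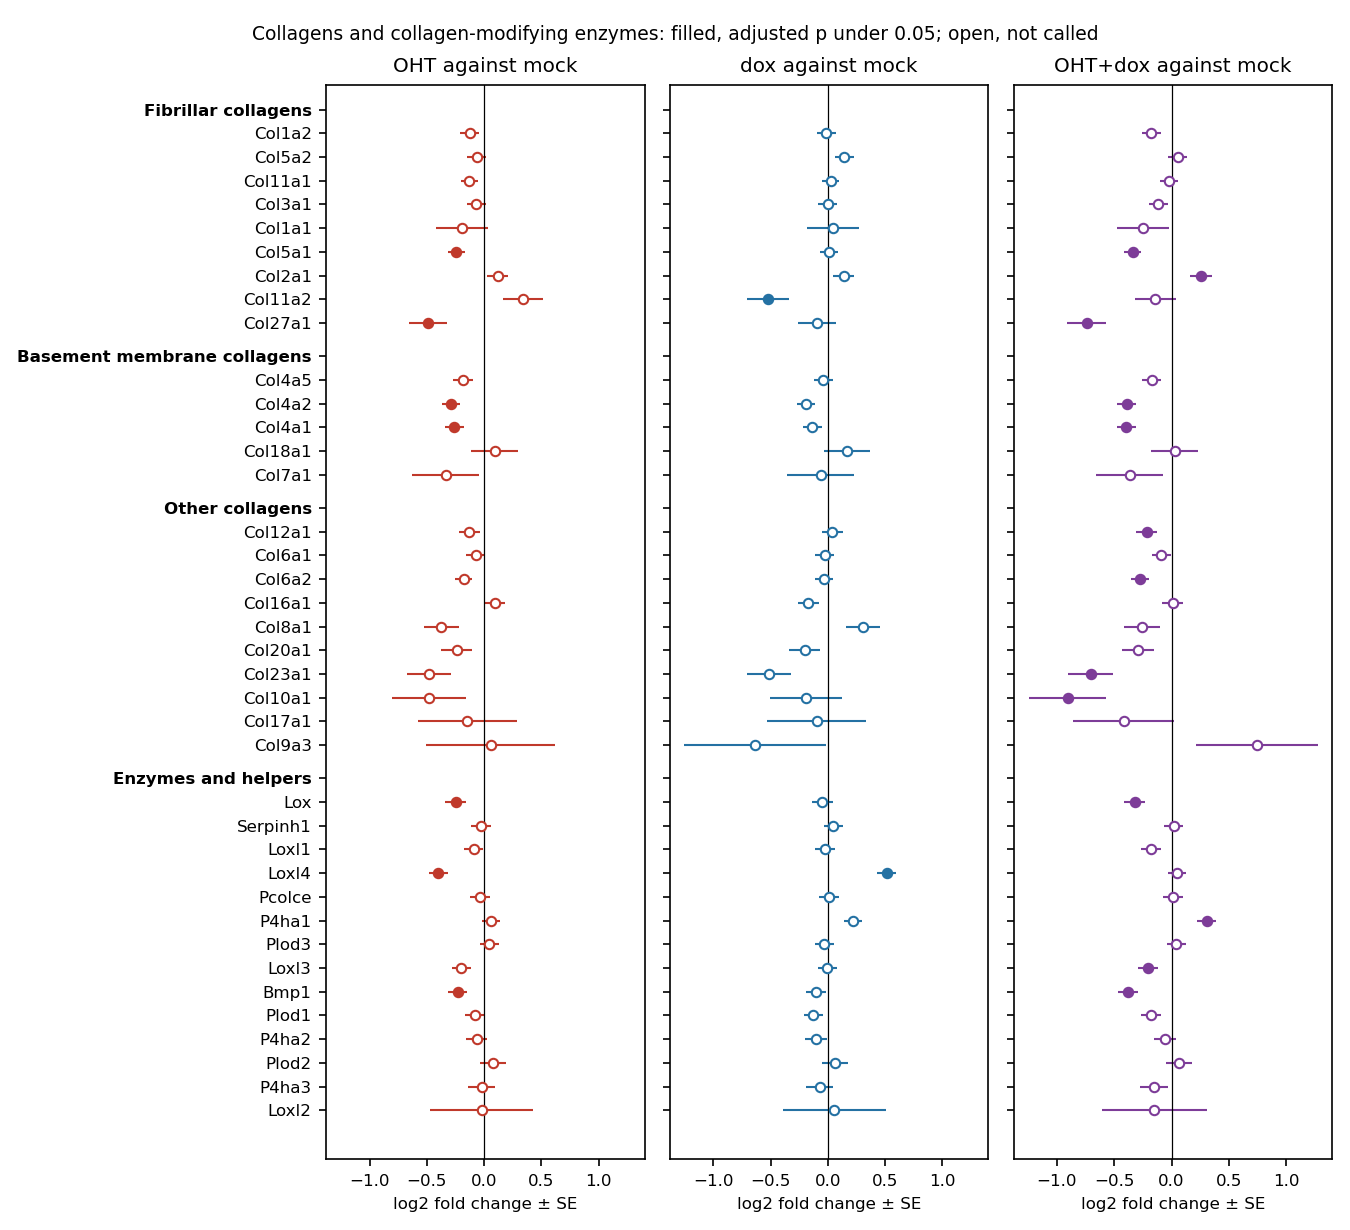
The log2 fold change (± SE) of each tested collagen and enzyme is plotted by class for OHT, dox and OHT+dox against mock, 3 libraries a group. Filled points passed an adjusted p of 0.05, and with OHT+dox all of these but Col2a1 and P4ha1 lie below 0.

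Summed over the 24 tested chains, collagen stood at 91.8% of the mock level in OHT, 100.5% in dox and 90.6% in OHT+dox. The basement membrane chains stood at 85.0% of mock in OHT, 92.8% in dox and 81.4% in OHT+dox. The fibrillar chains stood at 92.3%, 102.7% and 92.9% of mock in these groups, and the enzymes and helpers at 92.2%, 103.5% and 94.4%. These sums are led by a few abundant genes and carry no test.

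Among the abundant fibrillar chains, Col5a1 and Col2a1 were called against mock and the others were not. Col1a2 is a chain of type I, the main collagen of fibroblasts. Its mean normalized count was 5659.97 ± 228 in OHT, 6117 ± 246 in dox and 5456 ± 220.05 in OHT+dox, against 6173 ± 248 in mock (SE from the recovered dispersion, n = 3 libraries). Its log2 fold change with OHT+dox was -0.18 ± 0.08 (adjusted p = 0.07). Col5a2, a chain of the type V collagen that helps to set fibril diameter, had 5313 ± 215 in OHT, 6129.9 ± 247 in dox and 5769.9 ± 233 in OHT+dox, against 5554 ± 224 in mock. Its log2 fold change with OHT+dox was 0.05 ± 0.08, and it was not called in any comparison.

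Col1a1, the partner of Col1a2, had log2 fold changes of -0.19, 0.04 and -0.25 with OHT, dox and OHT+dox, each with a SE of 0.23, against 0.08 for Col1a2. Its 95% interval with OHT+dox ran from -0.69 to 0.19. Col3a1 and Col11a1 were not called either. Col5a1, the other tested type V chain, was the abundant fibrillar chain that fell, by 0.24 ± 0.08 on the log2 scale with OHT (adjusted p = 0.0088) and by 0.34 ± 0.08 with OHT+dox (adjusted p = 4.74e-05), beside 0.01 ± 0.08 with dox. Col2a1, the main collagen of cartilage, rose by 0.26 ± 0.09 with OHT+dox (adjusted p = 0.0177).

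Col27a1, a fibrillar collagen known from cartilage, was lower wherever OHT was given. Its normalized counts by library were 132, 125 and 137 in OHT, 190.2, 173 and 155 in dox, and 126, 107 and 97.9 in OHT+dox, against 190.1, 164 and 199 in mock. All OHT and all OHT+dox libraries lay below all mock libraries, and the dox libraries overlapped them. Here and below, such an order of 3 libraries a group also arises by chance. How many of all genes show it was not counted. The log2 fold change was -0.49 ± 0.17 with OHT (adjusted p = 0.0216), -0.09 ± 0.17 with dox (adjusted p = 0.813) and -0.74 ± 0.17 with OHT+dox (adjusted p = 0.000103). OHT+dox against dox gave -0.65 ± 0.17 (adjusted p = 0.00198).

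Col11a2, a chain of the type XI collagen of cartilage fibrils, differed between OHT and dox. Its normalized counts by library were 229, 175 and 198 in OHT, 106, 128 and 96.4 in dox, and 165, 154 and 113 in OHT+dox, against 163, 142 and 171 in mock. The OHT libraries all lay above mock, the dox libraries all below it, and the OHT+dox libraries overlapped it. It fell by 0.52 ± 0.18 on the log2 scale with dox (adjusted p = 0.0394), while its value of 0.34 ± 0.17 with OHT did not pass the test (adjusted p = 0.153). OHT against dox gave 0.86 ± 0.18 (adjusted p = 3.38e-05). In limma on the whole reads, the fall with dox lost its call without mock library 1, mock library 3, dox library 1 or dox library 3, where the log2 fold change was -0.50, -0.47, -0.50 and -0.43 and the adjusted p ranged from 0.0666 to 0.0998. Sox9, a transcription factor of cartilage cells and the chondrocyte marker that could be tested, rose with dox by 1.08 ± 0.36 (adjusted p = 0.026), and was at -0.10 ± 0.36 with OHT and 0.62 ± 0.36 with OHT+dox (adjusted p = 0.16). OHT against dox gave -1.18 ± 0.36 for Sox9 (adjusted p = 0.0083), and its part in the values of the cartilage collagens was not tested.

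In the basement membrane class, the calls were those of the main type IV chains. Col4a2 had a mean normalized count of 1556 ± 61.8 in OHT, 1665 ± 66.0 in dox and 1450.05 ± 58.0 in OHT+dox, against 1903 ± 74.7 in mock. It fell by 0.29 ± 0.08 on the log2 scale with OHT (adjusted p = 0.0028) and by 0.39 ± 0.08 with OHT+dox (adjusted p = 9.75e-06), and its value with dox was -0.19 ± 0.08 (adjusted p = 0.11). Col4a1, which assembles with it into the common type IV molecule, had 1436 ± 59.3 in OHT, 1567 ± 64.5 in dox and 1307 ± 54.5 in OHT+dox, against 1720.04 ± 70.2 in mock. It fell by 0.26 ± 0.08 with OHT (adjusted p = 0.0122) and by 0.40 ± 0.08 with OHT+dox (adjusted p = 1.87e-05). Both genes lie head to head on chromosome 8 (GRCm38.p6), with Col4a1 starting at 11312826 on the minus strand and Col4a2 at 11312805 on the plus strand, and their transcripts share 22 bases there.

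Col4a5, a chain of the less common type IV molecules, was the most abundant of the class, with 2102 ± 86.2 in OHT, 2324 ± 94.97 in dox and 2118 ± 86.9 in OHT+dox, against 2389 ± 97.4 in mock. Its log2 fold change was -0.18 ± 0.08 with OHT (adjusted p = 0.0982) and -0.17 ± 0.08 with OHT+dox (adjusted p = 0.0834). Col18a1, the precursor of endostatin, and Col7a1, the collagen of anchoring fibrils, had 95% intervals with OHT+dox of -0.37 to 0.43 and -0.94 to 0.21. In both, each treated group overlapped mock.

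Among the abundant other collagens, Col12a1 and Col6a2 fell with OHT+dox. Col12a1, which coats fibrils, had 4933 ± 223 in OHT, 5538 ± 249.8 in dox and 4642 ± 209.9 in OHT+dox, against 5396 ± 243 in mock, and fell by 0.22 ± 0.09 on the log2 scale with OHT+dox (adjusted p = 0.0463). Col6a1, a chain of the beaded filaments of type VI, had 3856 ± 157 in OHT, 3977 ± 161 in dox and 3808 ± 155 in OHT+dox, against 4051 ± 164 in mock, and its 95% interval with OHT+dox ran from -0.25 to 0.07. Its partner Col6a2 fell by 0.28 ± 0.08 with OHT+dox (adjusted p = 0.00127).

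Of the less abundant tested chains of this class, Col10a1 and Col23a1 fell with OHT+dox. Others were not called against mock, with log2 fold changes with OHT+dox of 0.74 ± 0.53 for Col9a3, -0.42 ± 0.44 for Col17a1 and -0.26 ± 0.15 for Col8a1. Col10a1, a network collagen of hypertrophic cartilage, had normalized counts by library of 38.0, 32.0 and 37.3 in OHT, 51.8, 41.4 and 38.1 in dox, and 34.4, 22.0 and 23.4 in OHT+dox, against 40.4, 66.8 and 43.0 in mock. The OHT and OHT+dox libraries all lay below mock, and the dox libraries overlapped it. The test called the OHT+dox difference of -0.91 ± 0.33 (adjusted p = 0.0192), which rests on 79 reads in OHT+dox and 153 in mock, while OHT gave -0.48 ± 0.32 (adjusted p = 0.312).

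Col23a1, a transmembrane collagen, was lower in every treated library than in any mock library, an order whose share over all genes was not counted. Its normalized counts by library were 104, 108 and 101 in OHT, 114, 100.3 and 91.1 in dox, and 65.8, 107 and 94.7 in OHT+dox, against 165, 140.4 and 129 in mock. The log2 fold change was -0.48 ± 0.19 with OHT (adjusted p = 0.0574), -0.51 ± 0.19 with dox (adjusted p = 0.0674) and -0.70 ± 0.20 with OHT+dox (adjusted p = 0.00156), so that the test called only the last. Limma on the whole reads called all 3, with adjusted p-values of 0.0316, 0.0378 and 0.000732. With 1 library left out, its OHT+dox call held in 12 of 12 fits and its OHT and dox calls in 8 of 12 each. The OHT call was lost without mock library 1 or 2 or OHT library 1 or 3 (adjusted p up to 0.150), and the dox call without mock library 1 or 2 or dox library 2 or 3 (up to 0.176).

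Members named beyond the naming rule, such as the next ones, were picked after their values were seen. Col8a1, a network collagen of vessels and the eye, had normalized counts by library of 215, 197 and 207 in OHT, 301, 389 and 304 in dox, and 269, 184 and 218 in OHT+dox, against 228, 293 and 283 in mock. The OHT libraries lay below mock, the dox libraries above it, and the OHT+dox libraries overlapped it. The Wald test called neither difference from mock (-0.38 ± 0.15 with OHT, adjusted p = 0.0623, and 0.31 ± 0.15 with dox, adjusted p = 0.189). Limma called the fall with OHT (adjusted p = 0.0287), and lost that call without mock library 2 or 3 or OHT library 2 or 3 (adjusted p up to 0.135). OHT against dox gave -0.68 ± 0.15 (adjusted p = 0.000136) and OHT+dox against dox -0.57 ± 0.15 (adjusted p = 0.00195). Col20a1, a fibril-associated collagen, had 223, 266 and 224 in OHT, 240.1, 247 and 244 in dox, and 201, 236 and 249 in OHT+dox, against 274, 281 and 285 in mock. All its treated libraries lay below mock, yet its largest log2 fold change, -0.29 ± 0.14 with OHT+dox, did not pass the test (adjusted p = 0.0723), while limma gave 0.0136, and 0.0981 without OHT+dox library 1.

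**Figure D2:**
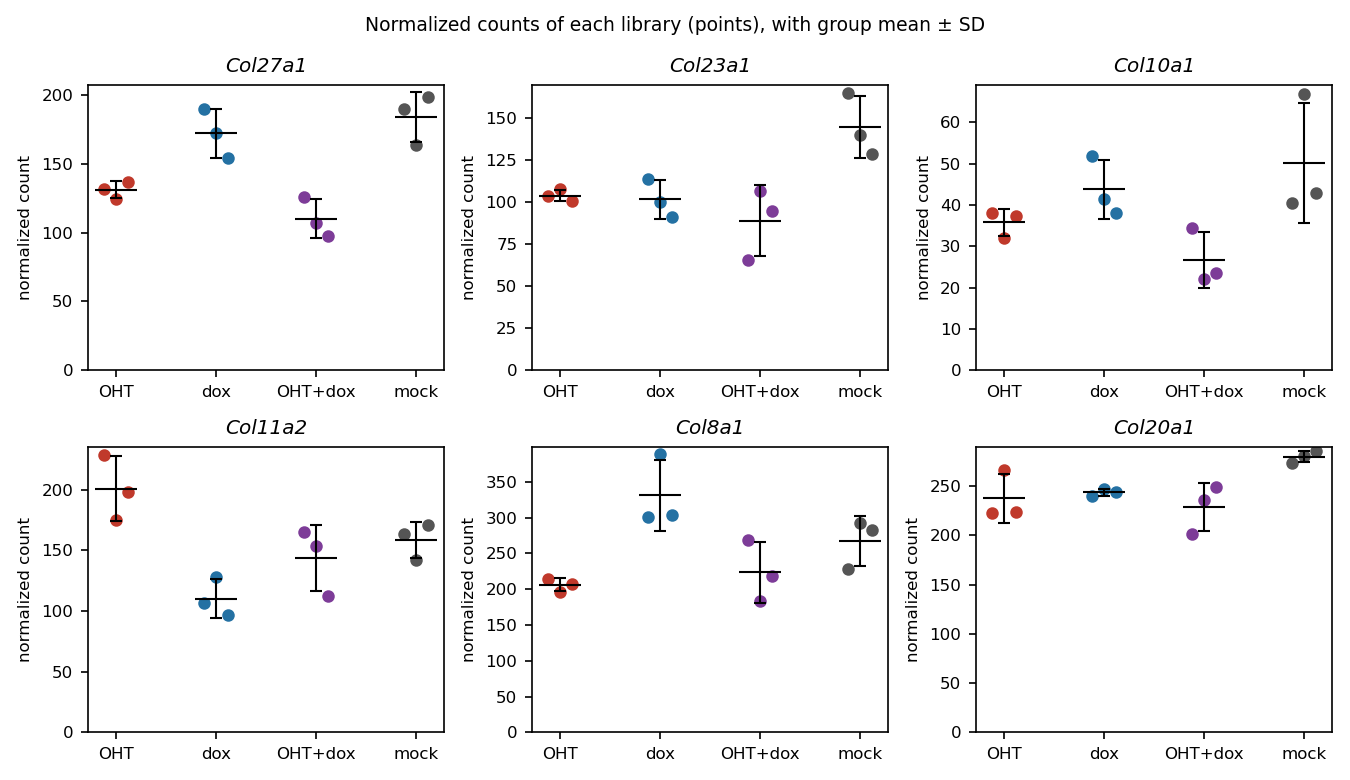
Normalized counts of 6 collagens are plotted for each library (points) in OHT, dox, OHT+dox and mock, with group means ± SD (n = 3). All treated libraries of Col23a1 and Col20a1 lie below all mock libraries, and for Col11a2 and Col8a1 the OHT and dox libraries lie on opposite sides of mock. The share of all genes with libraries set apart in this way was not counted.

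Of the cross-linking enzymes, Loxl4, a lysyl oxidase-like enzyme, moved in opposite directions with OHT and dox. It had a mean normalized count of 1444 ± 59.1 in OHT, 2723 ± 108 in dox and 1972 ± 79.3 in OHT+dox, against 1907 ± 76.8 in mock. With OHT it fell by 0.40 ± 0.08 on the log2 scale (adjusted p = 2.45e-05) and with dox it rose by 0.51 ± 0.08 (adjusted p = 5.1e-08). With OHT+dox it was at 0.05 ± 0.08 (adjusted p = 0.68), between both single treatments: 0.45 ± 0.08 against OHT (adjusted p = 1.17e-05) and -0.47 ± 0.08 against dox (adjusted p = 4.55e-07). The interaction, the part of the joint change that is not the sum of the single ones, was -0.06 ± 0.12 and was not called.

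Lox, the founding lysyl oxidase, had 3303 ± 147 in OHT, 3795 ± 168 in dox and 3142 ± 139.8 in OHT+dox, against 3923 ± 173 in mock. It fell by 0.25 ± 0.09 on the log2 scale with OHT (adjusted p = 0.0313) and by 0.32 ± 0.09 with OHT+dox (adjusted p = 0.00171), and its value with dox was -0.05 ± 0.09. With the standard error of the OHT comparison alone its adjusted p with OHT was 0.0759. Loxl3 fell by 0.21 ± 0.08 with OHT+dox (adjusted p = 0.0376), but 13.1% of its exon bases lie in exons of Htra2, where unstranded reads cannot be assigned. Loxl1 and Loxl2 were not called in any comparison.

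Of the folding enzymes and helpers, P4ha1 was the one that was called. Serpinh1 had 2584 ± 107 in OHT, 2724 ± 113 in dox and 2668 ± 110.3 in OHT+dox, against 2635 ± 109 in mock, and its 95% intervals against mock lay between -0.19 and 0.21. P4ha1, a catalytic subunit of prolyl 4-hydroxylase, had 1661 ± 65.3 in OHT, 1853 ± 72.4 in dox and 1969 ± 76.7 in OHT+dox, against 1592 ± 62.7 in mock. With OHT+dox it rose by 0.31 ± 0.08 on the log2 scale (adjusted p = 0.000607), beside 0.06 ± 0.08 with OHT (adjusted p = 0.66) and 0.22 ± 0.08 with dox (adjusted p = 0.0546). P4ha2, P4ha3 and the lysyl hydroxylases Plod1, Plod2 and Plod3 (which shares 16.4% of its exon bases with Mir702 and Znhit1) were not called in any comparison, with log2 fold changes against mock with OHT+dox from -0.18 (Plod1) to 0.06 (Plod2).

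Of the propeptide-processing pair, Bmp1 fell and Pcolce did not pass the test. Bmp1 had 1038 ± 42.8 in OHT, 1134 ± 46.5 in dox and 936 ± 39.1 in OHT+dox, against 1218 ± 49.5 in mock. It fell by 0.23 ± 0.08 on the log2 scale with OHT (adjusted p = 0.0299) and by 0.38 ± 0.08 with OHT+dox (adjusted p = 4.06e-05). Pcolce was at -0.04, 0.01 and 0.02 with OHT, dox and OHT+dox, and its interval with OHT+dox ran from -0.16 to 0.19.

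**Figure D3:**
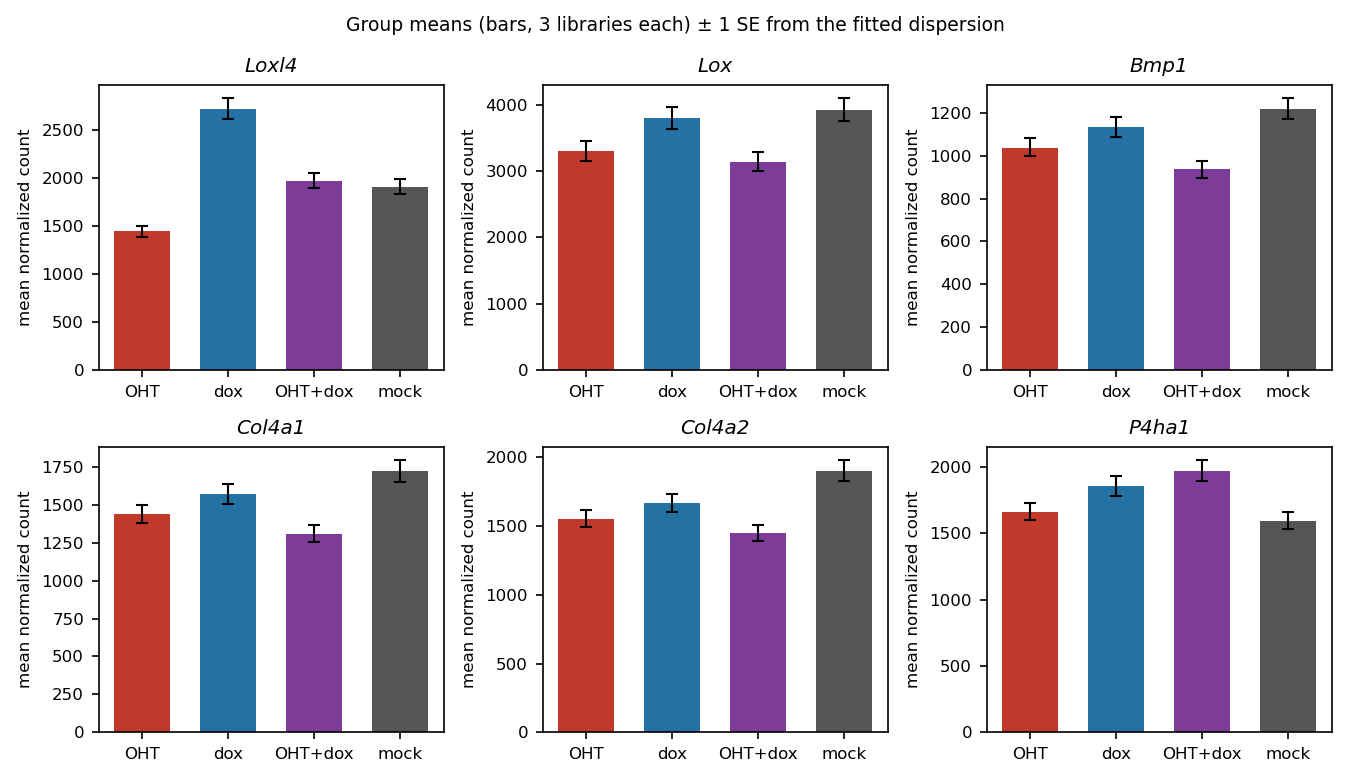
Mean normalized counts (bars, 3 libraries a group) are plotted with 1 SE from the recovered dispersion for 6 members in OHT, dox, OHT+dox and mock. Loxl4 is lowest in OHT and highest in dox, and Lox, Bmp1, Col4a1 and Col4a2 are lowest in OHT+dox.

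Set against the single treatments, OHT+dox differed from OHT for 5.13% of members and 4.78% of all genes, and from dox for 25.6% of members and 21.6% of all genes. Against OHT, 2 members were higher (Loxl4 and P4ha1) and 0 lower, beside 2.63% and 2.15% of all genes. Against dox, 0 members were higher and 10 lower, beside 12.7% and 8.89% of all genes. Between the single treatments, OHT was higher than dox for 2 members (Col11a2 and Col16a1) and lower for 4 (Loxl4, Col5a1, Col8a1 and Col4a3bp), beside 8.71% and 7.59% of all genes. For the interaction the Wald test called 0 members and 0 genes (0% of all genes), and limma on the whole reads called 0 genes. At an unadjusted p under 0.05 the Wald test gave 0 members and 132 of 12259 genes. The interaction z-values had an SD of 0.695 over all genes, so the standard errors were wide for this test. Those of the other comparisons rest on the same group variances. With standard errors scaled by that SD, 16 members were called with OHT, 1 higher and 15 lower. With the same scaling, 35 genes were called for the interaction. The 0 calls therefore do not show that the changes add up.

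The other 19 members were not tested. They were Col5a3 and Col24a1 among fibrillar chains, Col4a3, Col4a4, Col4a6 and Col15a1 of the basement membrane, and 13 other collagens. Their reads over all 12 libraries ranged from 2 for Col15a1 to 209 for Col8a2, and 18 of them had under 100. No read minimum was set beyond the need for a deposited adjusted p, which OHT+dox against mock had for 12365 of 21671 genes. Col9a3 was tested with 91 reads, 35 of them in OHT+dox, whereas for Col8a2 no dispersion could be recovered. Col14a1, a fibril-associated collagen, had normalized counts by library of 7.77, 5.34 and 8.42 in OHT, 1.88, 2.07 and 4.24 in dox, and 5.90, 6.99 and 5.32 in OHT+dox, against 4.59, 3.93 and 3.14 in mock. No difference between groups was tested for these genes.

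Genes that act beside the members were taken from 2 lists, of which 16 genes of collagen folding and processing and 14 of collagen receptors and binding were tested. In the first list, 3 rose and 3 fell with OHT, 2 rose and 0 fell with dox, and 4 rose and 3 fell with OHT+dox. The shares of all genes that rose and fell were 12.7% and 9.1% with OHT, 6.28% and 4.57% with dox, and 20.8% and 19.3% with OHT+dox. The values that follow are for OHT+dox against mock. Adamts2, which removes N-terminal propeptides, fell by 0.59 ± 0.12 on the log2 scale, and its relative Adamts14 rose by 0.81 ± 0.18. Pcolce2, a relative of Pcolce, rose by 0.89 ± 0.20, Colgalt1, which glycosylates hydroxylysine, by 0.42 ± 0.08, and Tll1, a relative of Bmp1, by 0.34 ± 0.10. Creb3l1, a transcription factor that drives type I collagen in mouse osteoblasts, fell by 1.24 ± 0.36, and the prolyl isomerase Fkbp14 by 0.35 ± 0.09.

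Among receptors and binding proteins 0 rose in any comparison with mock, while 2 fell with OHT, 0 with dox and 4 with OHT+dox. As shares of the 14, the falls were 14.3% with OHT and 28.6% with OHT+dox, beside 9.1% and 19.3% of all genes. With OHT+dox, the collagen-binding integrin chains Itga2, Itga10 and Itga11 fell by 1.59 ± 0.36, 0.91 ± 0.17 and 0.85 ± 0.11 on the log2 scale. The collagen-binding chain Itga1 was more abundant than these and was not called, at -0.02 ± 0.08 (adjusted p = 0.875). Its mean normalized count was 3618 in OHT+dox, against 3667 in mock. Itga2 was low, with 16.3 in OHT+dox against 49.0 in mock. The collagen uptake receptor Mrc2 fell by 0.19 ± 0.07. Itga11 had mean normalized counts of 852 in OHT, 1041 in dox and 699 in OHT+dox, against 1263 in mock. The collagen receptors Ddr1 and Ddr2 and the integrin chain Itgb1 were not called.

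Of the 6 tested fibroblast markers, Pdgfra and Pdgfrb fell with OHT+dox, by 0.83 ± 0.17 and 0.39 ± 0.07 on the log2 scale. The other 4 were not called, at -0.01 ± 0.09 for Vim, -0.03 ± 0.12 for S100a4, -0.09 ± 0.08 for Fbn1 and -0.24 ± 0.11 for Fn1 (adjusted p = 0.0591). The sum of the 6 tested fibroblast markers was 17506 in OHT, 19423 in dox and 16515 in OHT+dox, against 20008 in mock. Of the osteoblast markers, Runx2 fell by 0.77 ± 0.30 with OHT+dox (adjusted p = 0.0273), while Alpl rose by 0.66 ± 0.23 with OHT (adjusted p = 0.027) and by 0.83 ± 0.23 with OHT+dox (adjusted p = 0.00157). The 4 myofibroblast markers were not called against mock, at 0.00 ± 0.10 for Acta2, 0.01 ± 0.10 for Tagln, 0.11 ± 0.51 for Cnn1 and -0.08 ± 0.10 for Myl9 with OHT+dox. Their sum was 3285 in OHT, 3669 in dox and 3396 in OHT+dox, against 3445 in mock. The part of these markers in the values of the collagens was not tested.

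The spread of the fold changes was narrower among genes at high levels. Per kb of exon, the mean normalized count had a median of 136 over 11752 genes and a 99th percentile of 951. The SD of the log2 fold change with OHT+dox was 0.71 over genes at up to 10 per kb, 0.66 at 10 to 30 per kb, 0.45 at 100 to 200 per kb and 0.20 at 800 to 1000 per kb. The share called did not follow the SD, being 14.9%, 31.4%, 46.5% and 19.0% in these bins, so that it was low at both ends. Col1a2, Pcolce and Serpinh1 lay above 1000 per kb and Col1a1, Col3a1, Col5a2 and Col6a1 between 800 and 1000. Of these 7 members, 0 were called in any of the 7 comparisons. Of all genes at 800 to 1000 and above 1000 per kb, 4.76% and 6.38% were called with OHT. The shares were 3.97% and 5.32% with dox, and 19.0% and 17.0% with OHT+dox. At such shares, 0 calls among 7 members say little about them. Removal of duplicate reads was not described in what was read here, and the part of the level in these folds was not tested.

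**Figure D4:**
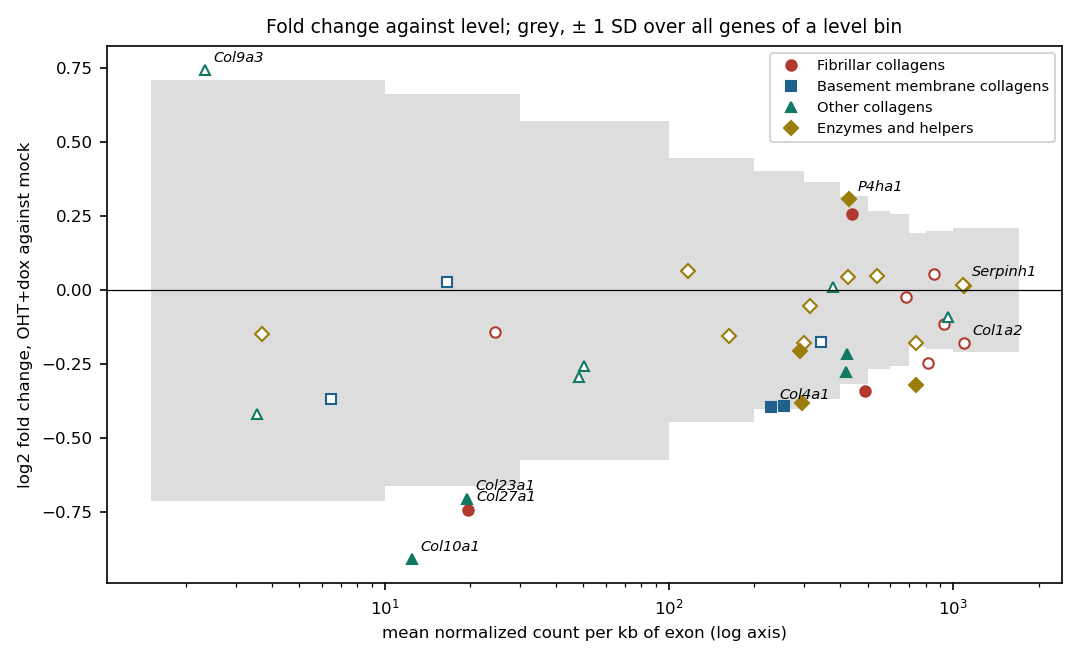
The log2 fold change of each tested collagen and enzyme with OHT+dox against mock is plotted over its mean normalized count per kb of exon (log axis), with ± 1 SD over all genes of each level bin in grey. The grey band narrows toward high levels, and Col10a1, Col23a1 and Col27a1, the called members with the largest falls, lie at 12.5, 19.4 and 19.7 per kb.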

How the data were processed

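RNA was measured by sequencing in 12 libraries, grouped by the labels. Per the labels and the study's methods, the authors aligned reads to mm9 with TopHat2 2.0.8, counted them per gene with featureCounts 1.4.5-p1 and compared each treated group with mock in DESeq2 (version not given in the sources used here). Libraries were made with TruSeq RNA v2, which does not keep strand. The deposited table holds, for each comparison with mock, the mean normalized count (read as signal), a shrunken log2 fold change and an adjusted p-value per gene, and a call, which was not used. It holds no value per library.

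The deposited log2 folds and adjusted p-values are the authors' own comparisons. They served only to rebuild group means and standard errors: the Benjamini-Hochberg adjustment and the shrinkage (prior SD 0.446 with OHT, 0.337 with dox, 0.619 with both) were undone, and a gene's dispersion was averaged over the 3 comparisons. Standard errors were not recovered where p was above 0.9, and 106 genes without a dispersion were left out. Two-sided Wald tests were adjusted (Benjamini-Hochberg) over 12259 genes. The 2 ways to a fold differed by over 0.1 (log2) for 76 genes with OHT and 132 with dox.

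Whole reads per library were worked out from the digits of the deposited means, for 11237 of 11977 genes with a mean up to 400 and for 30 members. Libraries are numbered by size factor and are not the labels' replicate numbers. Limma 3.58.1 (R 4.3.3) on log2(normalized reads + 2) of 5395 genes, 11 of them members, was an alternative chosen after seeing the data. Both recoveries were run on simulated data. These were made with the size factors and, for the group means, the formulas, prior SD and single dispersion per gene that the recovery assumes. They therefore could not test these assumptions. Python 3.11.15, numpy 2.4.6, pandas 2.3.3, scipy 1.17.1 and matplotlib 3.10.9 were used.

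The members and lists were chosen with earlier results of these data known. Named in full were members past an adjusted p of 0.05 and an absolute log2 fold change of 0.5 against mock, and the 2 most abundant of each class. Sequences and exon overlaps are from RefSeq and GENCODE on GRCm38, not the authors' build.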

Additional observations from a re-analysis of the deposited data

How the results depend on the processing

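Across the alternatives, no called value of a member changed sign. Limma and leaving out a library covered only 11 of the 39 tested members, those with recovered reads. The abundant called members, such as Loxl4, Lox, Bmp1, Col4a1, Col4a2 and Col5a1, had no check by library. With standard errors scaled by 0.695, the spread of the interaction z-values, members called were 16 with OHT, 8 with dox, 18 for OHT+dox against dox and 15 for OHT against dox, and genes called were 4914 with OHT (main 2676), 3483 with dox (1330), 2365 for OHT+dox against OHT (586), 4905 for OHT+dox against dox (2650), 3990 for OHT against dox (1998) and 35 for the interaction (0). With an absolute log2 fold change above 0.5 required, members called were 0 with OHT, 3 with OHT+dox, 0 for OHT+dox against OHT, 2 for OHT+dox against dox and 3 for OHT against dox, and genes called were 1159 with OHT, 492 with dox, 2539 with OHT+dox (main 4910), 236 for OHT+dox against OHT, 1131 for OHT+dox against dox and 911 for OHT against dox. A prior SD 10% lower left 1 member with dox (adjusted p of Col11a2 0.0575) and 1 for OHT+dox against OHT, as did groups scaled to equal sums for the second (adjusted p of P4ha1 0.0793, and 0.0525 with the lower prior SD). With each comparison's own standard error, Col1a2 with OHT+dox (adjusted p = 0.0356), P4ha1 with dox (0.0359) and Col23a1 with OHT (0.0474) were also called, Col1a2 also with equal sums (0.0414), and Lox with OHT was not (0.0759). The cause was not tested.

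Values near 0 that were not called changed sign. With equal sums these were Col16a1 with OHT+dox (-0.0096), Serpinh1 with OHT+dox (-0.0014), Col5a1 with dox (-0.0090), Col4a5 for OHT+dox against OHT (-0.011) and Col2a1 for OHT against dox (0.0020), and with the lower prior SD the interaction of Col4a1 (0.00073). In limma, leaving out a library gave ranges of -0.29 to 0.056 for Col10a1 with dox, -0.26 to 0.0079 for Col11a2 with OHT+dox, -0.038 to 0.12 for Col23a1 for OHT against dox, -0.041 to 0.23 for Col8a1 for OHT+dox against OHT, and -0.069 to 0.20 for the interaction of Col11a2. With a library left out, Col10a1 with OHT+dox ranged from -1.04 to -0.64, Col23a1 from -0.85 to -0.51 and Col27a1 from -0.83 to -0.66, with an adjusted p under 0.05 in all 12 fits. No paired analysis was possible because the table holds no value per library and the recovered libraries carry no replicate number. For the same reason the replicate block and leaving out each numbered replicate were not run. An unpaired edgeR or DESeq2 fit needs no replicate number but was not run either. Limma on the recovered reads, which cover only genes with a mean up to 400, was the only fit by library.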
